A study of Homo sapiens with 8 samples.

Results

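The genes described here form the integrated stress response and ATF4 target module, 35 genes chosen by name: the ATF4 transcription factor and its partners, feedback regulators of the response, enzymes of amino acid and one-carbon synthesis, amino acid transporters, and tRNA synthetases. All 35 have a row in the deposited tables, out of 23621 gene rows, and 34 passed a minimum mean of 1 normalized FPKM over the 8 libraries. The exception was ALDH1L2, a mitochondrial folate enzyme, with 0.0364 to 0.0640 unnormalized FPKM. The study sequenced poly(A) RNA from NALM6, an established human B-cell acute lymphoblastic leukemia line, and its title links extra copies of HMGN1, a nucleosome-binding protein, to a global rise in transcription.

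The 8 libraries form 4 groups of 2, lettered A and B and called biological replicates in the labels. SE DOX cells carried an inducible HMGN1 S20,24E mutant deficient in nucleosome binding and received doxycycline at 100 ng/ml for 6 hours. SE vehicle cells carried the same mutant and received vehicle for 6 hours. WT DOX cells carried inducible wild-type HMGN1 and received the same dose for the same time, and WT vehicle cells carried wild-type HMGN1 and received vehicle. The labels do not say whether each construct line is a clone or a pool, or what sets letters A and B apart, so p-values measure the spread between these libraries, which may in part be technical. No line without a construct was analysed here, and any difference between SE and WT cannot be told apart from other differences between the lines.

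The integrated stress response begins when a kinase phosphorylates the translation factor eIF2, which lowers protein synthesis in general and raises translation of the ATF4 message. ATF4 protein then switches on genes for amino acid uptake, amino acid synthesis, tRNA charging and, when stress lasts, cell death. Doxycycline blocks ribosomes of mitochondria as well as those of bacteria, and mitochondrial stress can start the response through the protease OMA1, the adaptor DELE1 (KIAA0141 in these tables) and the kinase HRI (EIF2AK1). In leukemia cells the pathway is known above all for the adaptation to asparagine shortage through ASNS. Because ATF4 is controlled mainly at translation, its mRNA does not measure its activity.

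FPKM is a level corrected for transcript length and for the number of mapped fragments in a library. One deposited table is unnormalized, and the other is brought to a common spike-in level: ERCC spike-ins are synthetic RNAs added in equal amount to RNA from an equal number of cells. Spike-in sums ran from 7050 to 7166 in the normalized table and from 5675 to 10042 in the unnormalized table, with the highest in letter A of SE DOX, which also had the lowest median gene. HMGN1, the gene to be induced, held 1421 and 1061 unnormalized FPKM in SE DOX, 1427 and 1066 FPKM in SE vehicle, 793 and 795 FPKM in WT DOX, and 809 and 796 FPKM in WT vehicle, so no DOX library exceeded the vehicle library of its letter, and the gene does not verify the treatment label. All 18 B-lineage markers were above the minimum, against 1 of 10 T and NK cell markers, 2 of 10 myeloid markers, 2 of 9 adherent cell markers and 0 of 7 erythroid markers.

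The members covered a wide range of levels. By mean normalized FPKM over the 8 libraries ATF4 was highest at 309, ahead of 97.7% of the genes tested, followed by ATF5 at 248 and MTHFD2 at 202. At the low end stood PPP1R15A at 15.0, SESN2 at 6.17, CEBPB at 4.58, CHAC1 at 3.20 and SLC7A11 at 1.55. All 34 tested members were detected in every library, vehicle included.

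Promoter sequence was read from RefSeq (GRCh38.p14, a later build than that of the tables) as 250 bases before to 50 bases after each start, and 29 of the 35 members had an entry. PSPH, SHMT2, ALDH1L2, PYCR1, SLC7A11 and EIF4EBP1 were not matched. ATF4 pairs with C/EBP proteins on a composite site, whose core was searched as TGATGNAA on both strands. It occurred in 7 of 29 member windows (24.1%) and in 3.62% of all 35093 windows of the same length. The match lay wholly before the start in 3 of 29 members (10.3%), against 3.15% of all windows, and those 3 are shown because ATF4 is known to act through sites of this kind in promoters. The capitals mark the match, read 5′ to 3′ on the gene's strand, with 30 bases on either side.
ASNS (chr7:97872439-97872506, minus strand): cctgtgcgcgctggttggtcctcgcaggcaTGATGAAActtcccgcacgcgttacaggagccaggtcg
CHAC1 (chr15:40953232-40953299, plus strand): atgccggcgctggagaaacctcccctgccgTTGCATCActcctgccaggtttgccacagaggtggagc
AARS (chr16:70289656-70289723, minus strand, AARS1 in RefSeq): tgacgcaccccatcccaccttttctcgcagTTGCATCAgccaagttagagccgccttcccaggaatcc
The match began 68 bases before the start in ASNS, where the core reads forward, and 209 and 187 bases before it in CHAC1 and AARS, where it reads on the opposite strand. In SLC3A2, SLC7A1, MARS and NARS a match overlapped or followed the start. A match is a stretch of letters and not a shown binding site, and the absence of these letters from the other windows says nothing about ATF4 there.

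For each member below, unnormalized FPKM is given for letter A and then letter B of each group. Among the regulators, ATF4, the factor that gives the pathway its name, held 277 and 306 FPKM in SE DOX, 283 and 302 FPKM in SE vehicle, 332 and 286 FPKM in WT DOX, and 331 and 300.2 FPKM in WT vehicle. Its lowest and highest libraries differed 1.20-fold, and DOX and vehicle libraries overlapped in both constructs. ATF5, a related factor that is also controlled at translation, held 261 and 233 FPKM in SE DOX, 261 and 225 FPKM in SE vehicle, 227 and 267 FPKM in WT DOX, and 224 and 272 FPKM in WT vehicle. It was higher in SE letter A and WT letter B than in SE letter B and WT letter A, in both treatments.

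DDIT3, the factor CHOP, which promotes cell death in prolonged stress, held 27.4 and 17.7 FPKM in SE DOX, 29.0 and 16.9 FPKM in SE vehicle, 15.9 and 18.2 FPKM in WT DOX, and 14.8 and 19.1 FPKM in WT vehicle. Both SE letter A libraries lay above all the others, and the highest and lowest libraries were 1.96-fold apart. CEBPB, a factor that dimerizes with ATF4, held 4.94 and 5.02 FPKM in SE DOX, 3.74 and 4.38 FPKM in SE vehicle, 4.93 and 3.89 FPKM in WT DOX, and 4.66 and 3.71 FPKM in WT vehicle. In each construct and letter the DOX library was above its vehicle library, and the treatments overlapped in WT. In SE they did not overlap on this scale. They did overlap in normalized FPKM, at 3.54 and 4.58 in SE DOX and 3.41 and 4.47 in SE vehicle. The share of all genes without overlap in SE was not counted. CEBPG, another dimer partner of ATF4, held 31.9 and 28.9 FPKM in SE DOX, 32.6 and 29.9 FPKM in SE vehicle, 27.0 and 32.2 FPKM in WT DOX, and 27.6 and 31.1 FPKM in WT vehicle, with no separation of treatments.

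Of the feedback and stress effectors, TRIB3, a pseudokinase that restrains ATF4, held 39.8 and 25.2 FPKM in SE DOX, 40.3 and 24.8 FPKM in SE vehicle, 22.4 and 30.3 FPKM in WT DOX, and 23.0 and 29.3 FPKM in WT vehicle. As for DDIT3, both SE letter A libraries were highest and both WT letter A libraries were lowest. CHAC1, an enzyme that degrades glutathione, held 3.90 and 3.76 FPKM in SE DOX, 4.34 and 3.57 FPKM in SE vehicle, 1.96 and 2.80 FPKM in WT DOX, and 1.80 and 3.35 FPKM in WT vehicle. All 4 SE libraries lay above all 4 WT libraries, and WT letter A was lowest. DDIT4, an inhibitor of mTORC1, held 40.1 and 39.1 FPKM in SE DOX, 40.7 and 37.6 FPKM in SE vehicle, 53.1 and 45.6 FPKM in WT DOX, and 57.1 and 47.3 FPKM in WT vehicle. All 4 SE libraries lay below all 4 WT libraries.

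SESN2, a leucine sensor upstream of mTORC1, held 6.57 and 5.92 FPKM in SE DOX, 6.63 and 5.90 FPKM in SE vehicle, 5.25 and 6.45 FPKM in WT DOX, and 5.31 and 6.33 FPKM in WT vehicle. PPP1R15A, the phosphatase subunit GADD34 that removes the phosphate from eIF2, held 17.0 and 12.3 FPKM in SE DOX, 18.9 and 12.2 FPKM in SE vehicle, 15.1 and 13.2 FPKM in WT DOX, and 15.5 and 13.8 FPKM in WT vehicle. EIF4EBP1, a repressor of cap-dependent translation, held 96.9 and 127 FPKM in SE DOX, 94.1 and 130.0 FPKM in SE vehicle, 110.5 and 127 FPKM in WT DOX, and 108 and 124 FPKM in WT vehicle. The letters differed more than the treatments for all of these: SE letter A was highest for PPP1R15A and lowest for EIF4EBP1 in both treatments, and WT letter A was lowest for SESN2. VLDLR, a lipoprotein receptor, ran from 38.4 to 57.9 FPKM, lowest in both WT letter A libraries.

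**Figure D1:**
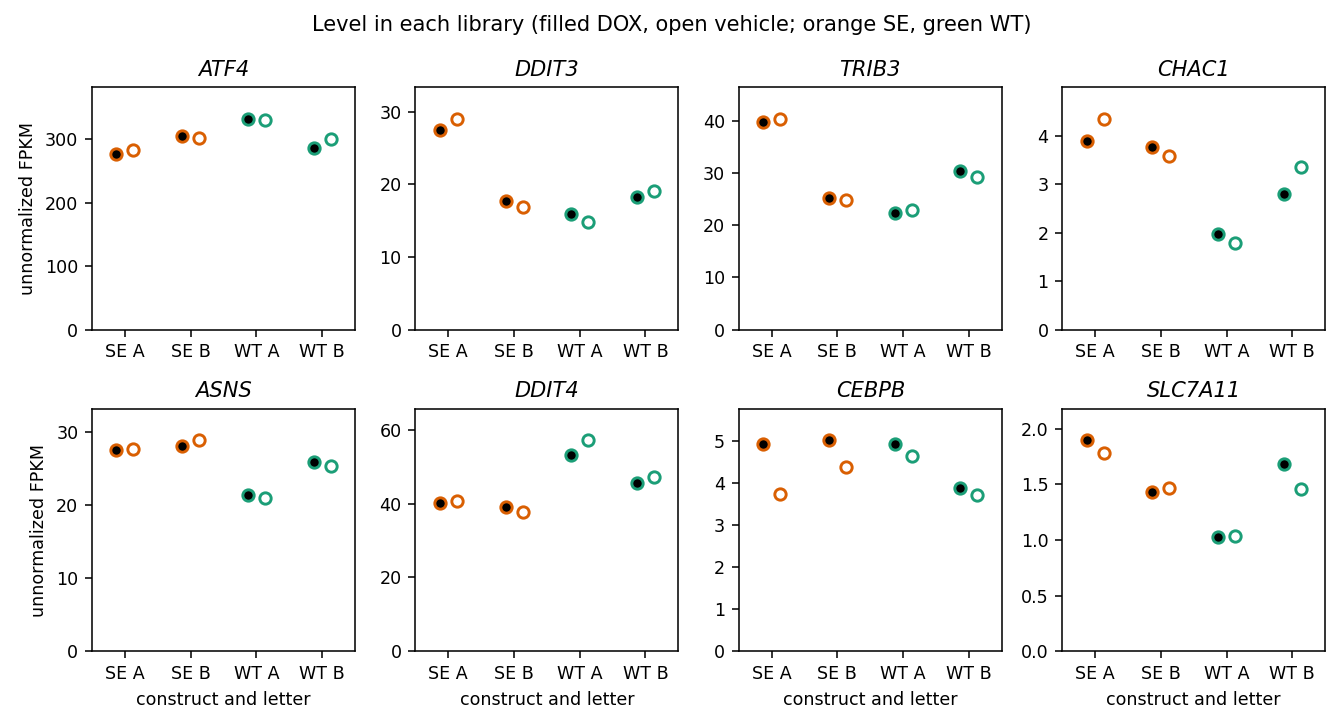
Unnormalized FPKM (vertical axis, from 0) of 8 members in each library, by construct and letter (horizontal axis); orange is SE, green is WT, filled points are DOX and open points vehicle. DOX and vehicle points of the same construct and letter often lie close together, as for TRIB3 in SE letter A (39.8 and 40.3 FPKM). In several panels letters or constructs lie farther apart. CEBPB in SE is an exception, with 4.94 and 5.02 FPKM in DOX and 3.74 and 4.38 FPKM in vehicle. CHAC1 in WT letter B is another, at 2.80 and 3.35 FPKM.

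Among the synthesis enzymes, ASNS, asparagine synthetase, held 27.5 and 28.2 FPKM in SE DOX, 27.7 and 28.9 FPKM in SE vehicle, 21.4 and 25.9 FPKM in WT DOX, and 20.9 and 25.4 FPKM in WT vehicle. All 4 SE libraries were above all 4 WT libraries, and WT letter A was lowest. The serine pathway enzymes differed less. PHGDH, its first enzyme, held 72.0 and 88.1 FPKM in SE DOX, 75.5 and 84.1 FPKM in SE vehicle, 76.6 and 83.4 FPKM in WT DOX, and 78.1 and 82.7 FPKM in WT vehicle. PSAT1, the next enzyme, held 92.6 and 92.1 FPKM in SE DOX, 92.4 and 92.7 FPKM in SE vehicle, 77.9 and 91.7 FPKM in WT DOX, and 78.9 and 92.4 FPKM in WT vehicle. Apart from the WT letter A libraries at 77.9 and 78.9 FPKM, PSAT1 libraries lay within 91.7 to 92.7 FPKM. PSPH, which completes serine synthesis, held 14.9 and 14.8 FPKM in SE DOX, 15.0 and 15.3 FPKM in SE vehicle, 13.1 and 16.4 FPKM in WT DOX, and 13.6 and 15.4 FPKM in WT vehicle, again lowest in WT letter A.

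SHMT2, which passes a carbon from serine to folate in mitochondria, held 115 and 123 FPKM in SE DOX, 117 and 118 FPKM in SE vehicle, 126 and 119.5 FPKM in WT DOX, and 125 and 124 FPKM in WT vehicle. MTHFD2, the next mitochondrial folate enzyme, held 189.9 and 201 FPKM in SE DOX, 184 and 196 FPKM in SE vehicle, 200.0 and 208 FPKM in WT DOX, and 199 and 208 FPKM in WT vehicle. Their lowest and highest libraries were 1.09-fold and 1.13-fold apart, among the narrowest ranges of the module. PCK2, mitochondrial phosphoenolpyruvate carboxykinase, and PYCR1 and ALDH18A1, enzymes of proline synthesis, spanned 1.40-fold, 1.29-fold and 1.20-fold.

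Of the transporters, SLC7A11, the cystine importer, was the lowest tested member and held 1.89 and 1.43 FPKM in SE DOX, 1.78 and 1.47 FPKM in SE vehicle, 1.03 and 1.68 FPKM in WT DOX, and 1.03 and 1.45 FPKM in WT vehicle. WT letter A was lowest and SE letter A highest in both treatments. SLC7A5, the large neutral amino acid transporter, held 101 and 99.9 FPKM in SE DOX, 98.6 and 96.9 FPKM in SE vehicle, 84.3 and 97.2 FPKM in WT DOX, and 82.7 and 98.1 FPKM in WT vehicle. SLC3A2, its heavy chain, held 86.7 and 86.4 FPKM in SE DOX, 88.8 and 81.9 FPKM in SE vehicle, 75.2 and 82.6 FPKM in WT DOX, and 75.3 and 86.0 FPKM in WT vehicle. Both were lowest in WT letter A and otherwise lay within 96.9 to 101 FPKM for SLC7A5 and 81.9 to 88.8 FPKM for SLC3A2. SLC7A1, an arginine and lysine importer, and SLC1A5, a glutamine importer, spanned 1.11-fold and 1.14-fold. The tRNA synthetases AARS, GARS, SARS, WARS, EPRS, MARS and NARS and the tRNA exporter XPOT spanned 1.08-fold (AARS) to 1.25-fold (EPRS).

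The comparison of DOX with vehicle asks whether doxycycline, with or through the construct, moved the pathway within 6 hours. No member passed the threshold in either construct in the fit to the 4 group means. Tests used limma on log2(normalized FPKM + 0.1) over 11465 genes with p-values adjusted by the Benjamini-Hochberg method and called at 0.05. In SE, 0 of 34 members were called, against a background of 0.0523% of genes. In WT 0 of 34 were called (background 0.0698%), and averaged over both constructs 0 of 34 (background 0.0698%). The DOX effect did not pass the test of a difference between SE and WT for any member (0 of 34, background 0.0785%). All rows called in these 4 comparisons, 6, 8, 8 and 9, had small RNA names, which no member has. At an unadjusted p under 0.05 the count of members was also 0 in each of these 4 limma comparisons.

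Members moved as the median gene did. In SE the median log2 fold change, DOX minus vehicle, was -0.24 over the members and -0.24 over all genes tested. In WT the medians were -0.03 and -0.03, and averaged over both constructs -0.14 and -0.14. These shared shifts belong to the spike-in scale. In unnormalized FPKM the median over all genes was -0.0004 in SE and -0.002 in WT. Since both tables count RNA in bulk, fewer cells, less RNA per cell and unequal spike-in addition cannot be told apart in the shifts. The size of the SE shift depends on letter A of SE DOX, without which the medians were -0.05 over the members and -0.05 over all genes. The log2 ratio of the median gene between libraries of the same letter was -0.35 in SE letter A, -0.13 in SE letter B, -0.02 in WT letter A and -0.05 in WT letter B.

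Relative to the median gene, 33 of the 34 members lay within 0.1 on the log2 scale in each of the 3 DOX comparisons, against 90.2% of all genes in SE, 88.5% in WT and 93.5% averaged. The exceptions were CEBPB in SE, at 0.28 above the median gene, SLC7A11 in WT, at 0.12 above, and CEBPB in the average, at 0.18 above. The lowest were PPP1R15A in SE and DDIT4 in WT, 0.07 and 0.08 below the median gene. The shares over all genes were not matched to the members for level and include the 302 rows with small RNA names. By role, the median relative change averaged over both constructs was 0.005 for the regulators, -0.01 for the feedback and stress effectors, 0.0006 for synthesis enzymes, 0.02 for transporters and -0.008 for tRNA synthetases and XPOT.

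The members with the smallest p in SE were SESN2, with a log2 fold change of -0.24 (standard error 0.15), CEBPG at -0.28 (standard error 0.18) and PSPH at -0.27 (standard error 0.18), each with a limma adjusted p of 0.537. In WT they were DDIT4 at -0.11 (standard error 0.25), PPP1R15A at -0.09 (standard error 0.23) and SLC7A11 at 0.09 (standard error 0.27), each with a limma adjusted p of 1.00. The 95% interval of each of these 6 values includes 0. Averaged over both constructs PPP1R15A, SESN2 and CEBPG led, with log2 fold changes of -0.20, -0.13 and -0.15 and a limma adjusted p of 0.657. For the difference of the DOX effects, SE minus WT, PSPH, CEBPG and SESN2 had log2 values of -0.25, -0.26 and -0.22 and a limma adjusted p of 0.83. In this fit the 95% intervals reached 0.35 to 0.68 on either side of a member's value in each construct. Averaged over both constructs the highest upper bound of any member was 0.46.

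Within libraries of the same construct and letter, CEBPB was above the median gene's DOX over vehicle ratio in 4 of 4, by 0.40 in SE letter A, 0.17 in SE letter B, 0.10 in WT letter A and 0.05 in WT letter B. On the spike-in scale, with the shared shift included, its limma log2 fold change averaged over both constructs was 0.04 (standard error 0.19), with an adjusted p of 0.845. SLC7A5 was also above in 4 of 4, by 0.007 to 0.05. These are 2 of 34 members (5.88%), against a background of 4.76% of genes. GARS alone was below in 4 of 4 (2.94% of members, background 4.67%). CHAC1 and DDIT3, like TRIB3, PHGDH and further members, changed sign between letters in both constructs. CHAC1 stood 0.16 above the median gene in WT letter A and 0.26 below it in WT letter B.

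**Figure D2:**
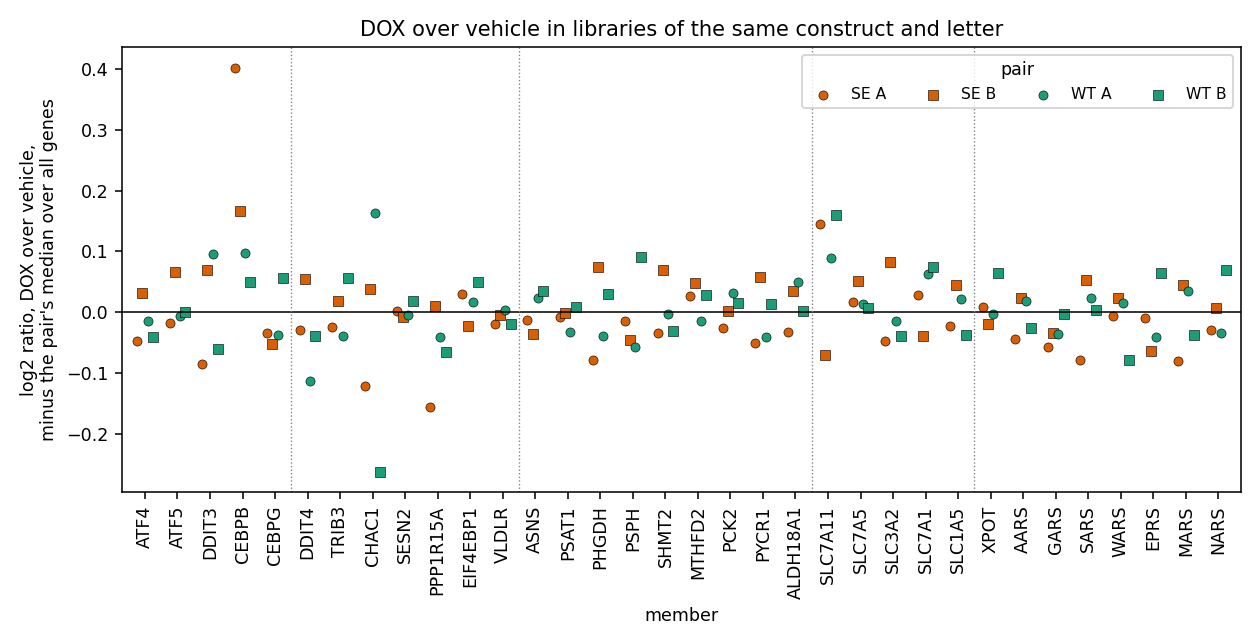
Log2 ratio of DOX over vehicle between libraries of the same construct and letter, minus the median over all genes tested (vertical axis), for each of the 34 members (horizontal axis, by role); orange is SE, green is WT, circles are letter A and squares letter B. Most points lie near 0; CEBPB in SE letter A is highest at 0.40 and CHAC1 in WT letter B lowest at -0.26.

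The comparison of SE with WT asks how the module differed between cells with the mutant and cells with wild-type HMGN1. On the spike-in scale the median gene was lower in SE, and the members' median was lower by a similar amount. In vehicle the median log2 fold change, SE minus WT, was -0.27 over the members and -0.32 over all genes; in DOX it was -0.50 over the members and -0.53 over all genes. With limma 0 of 34 members were called in vehicle (background 0.183%) and 0 of 34 in DOX (background 0.105%). At an unadjusted p under 0.05 there was 1 of 34 members in vehicle (2.94%, against 7.12% of all genes) and 13 of 34 in DOX (38.2%, against 60.4%). Without letter B of SE DOX, 27 of 34 members (79.4%) were called lower in SE in DOX, against 8253 of 11465 genes (72.0%), while the members' median log2 fold change was -0.66 and that of all genes -0.71.

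DDIT4 had the smallest p in both. In vehicle its log2 fold change was -0.71 (95% interval -1.27 to -0.15, limma adjusted p = 0.339), and in DOX -0.83 (-1.39 to -0.27, limma adjusted p = 0.0765). Leaving out the 302 rows with small RNA names brought the adjusted p in DOX to 0.0494, with a background of 4.66% of 11163 genes called, and left 0 members called in vehicle (background 0.493%). With libraries also scaled to equal medians, 0 members and 9 of 11163 genes were called in DOX, and the smallest limma adjusted p of a member was 0.718. Relative to the median gene the values of DDIT4 were -0.39 in vehicle and -0.30 in DOX, so part of each fold change is the shared shift. In vehicle WARS followed at -0.33 and MTHFD2 at -0.39, both with a limma adjusted p of 0.339, beside -0.32 for the median gene. In DOX PSPH followed at -0.50 and SESN2 at -0.42, both with a limma adjusted p of 0.0765. Relative to the median gene the values of PSPH and SESN2 in DOX were 0.03 and 0.11, so their sign is that of the shared shift.

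CHAC1 was the member farthest above the median gene, by 0.66 in vehicle and 0.67 in DOX. Its log2 fold change on the spike-in scale was 0.34 in vehicle (95% interval -0.21 to 0.89, limma adjusted p = 0.345) and 0.14 in DOX (-0.41 to 0.69, limma adjusted p = 0.61). Leaving out 1 library at a time, these values ranged from 0.00231 (without letter A of WT vehicle) to 0.67 in vehicle and from 0.00032 (without letter B of SE DOX) to 0.28 in DOX. ASNS stood 0.31 above the median gene in vehicle and 0.26 in DOX, DDIT3 0.41 and 0.39, and TRIB3 0.31 and 0.29, while on the spike-in scale their log2 fold changes were -0.01 and -0.27, 0.09 and -0.14, and -0.02 and -0.24. None of these passed limma's adjusted threshold. For DDIT3 and TRIB3 the higher value in SE came from letter A: at equal medians the log2 level in letter B was 4.16 and 4.10 in SE and 4.20 and 4.27 in WT for DDIT3 (DOX and vehicle), and 4.66 and 4.65 in SE and 4.93 and 4.88 in WT for TRIB3. By role the relative median in vehicle was 0.12 for feedback and stress effectors and 0.11 for transporters, and between 0.002 and 0.03 for the regulators, the synthesis enzymes and the tRNA group.

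How many members separated the constructs depended on the scale. On the spike-in scale all 4 SE libraries lay below all 4 WT libraries for 23 of 34 members (67.6%, background 66.7%) and above them for 0 members (background 0.331%). In unnormalized FPKM, 3 members had all SE libraries above all WT libraries: ASNS, CHAC1 and AARS (8.82%, background 8.09%). DDIT4 had them all below (2.94%, background 11.8%). With libraries scaled to equal medians PSAT1 joined the higher ones, making 4 (11.8%, background 7.62%), and DDIT4 was again the 1 member below (2.94%, background 11.8%).

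**Figure D3:**
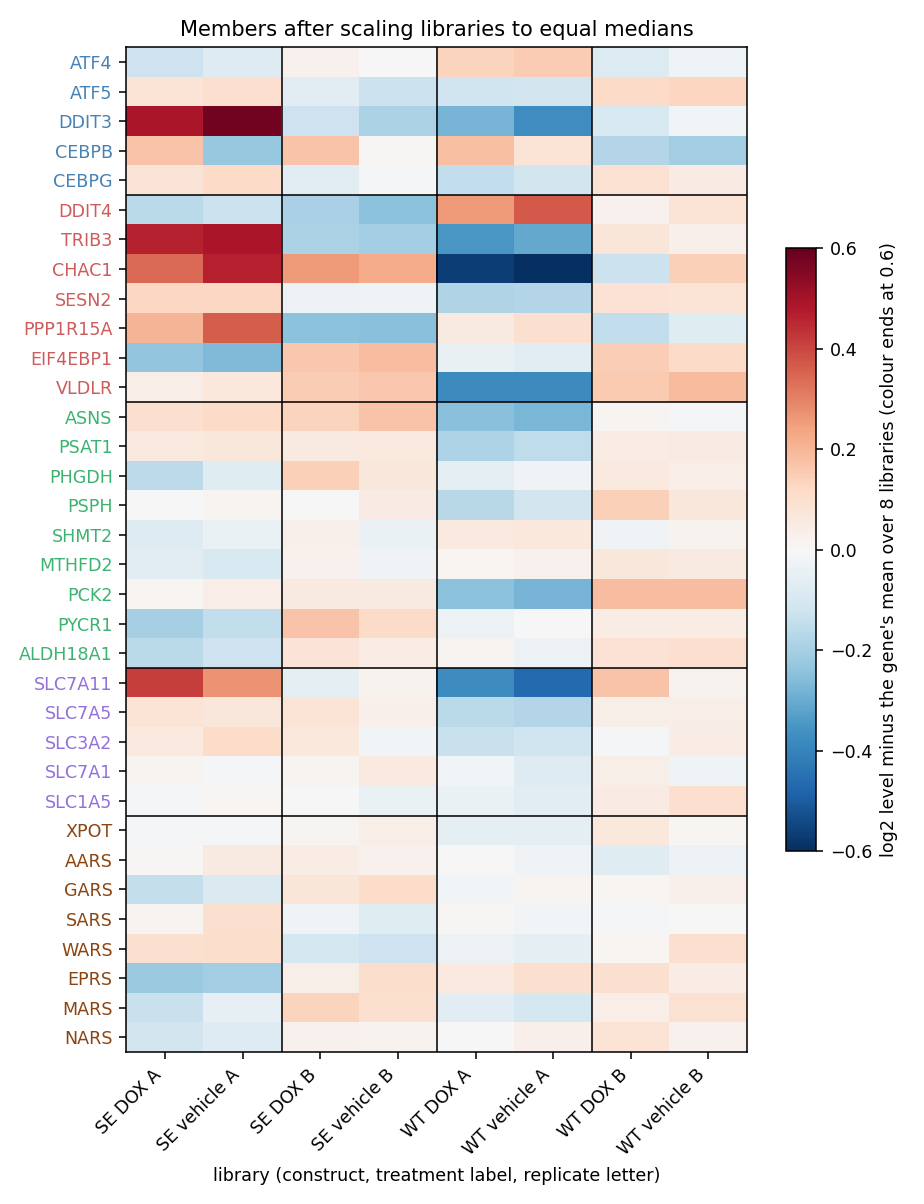
Log2 level of each tested member (rows, by role) minus its mean over the 8 libraries, after libraries were scaled to equal medians; columns are libraries by construct and letter, with DOX left of vehicle, and the colour scale ends at 0.6. Neighbouring DOX and vehicle columns resemble each other; DDIT3 and TRIB3 are darkest red in SE letter A and CHAC1 and SLC7A11 darkest blue in WT letter A.

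Letters A and B of one construct differed more than the treatments did. With libraries scaled to equal medians, the median size of the difference over the 34 members was 0.01 for DOX minus vehicle averaged over both constructs and letters, 0.07 for SE minus WT, 0.12 between the SE letters and 0.18 between the WT letters. Over all genes other than small RNAs these medians were 0.02, 0.10, 0.11 and 0.12. The DOX value averages more libraries than a letter difference does; within a single construct and letter the members' median size relative to the median gene was 0.03 to 0.04. The letter difference was larger than the averaged DOX difference for 29 of 34 members in SE, for 32 in WT and for 27 in both. This count was not made over all genes, whose medians above also have the letter differences ahead of DOX, so it is not particular to the module.

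In SE the largest differences, letter A minus letter B, were DDIT3 at 0.69, TRIB3 at 0.68, PPP1R15A at 0.53 and SLC7A11 at 0.36, and, the other way, EIF4EBP1 at -0.43 and PYCR1 at -0.32. The other feedback and stress effectors were closer to 0, with CHAC1 at 0.16, SESN2 at 0.15, DDIT4 at 0.08 and VLDLR at -0.11. In WT, letter A was lower by 0.66 for CHAC1, 0.56 for VLDLR, 0.52 for SLC7A11, 0.45 for PCK2 and 0.38 for TRIB3, and higher by 0.32 for CEBPB, 0.26 for DDIT4 and 0.20 for ATF4. With 1 letter on each side there is no replicate of these differences and no test.

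Both WT letter A libraries were the lowest of all 8 for 15 of 34 members (44.1%, background 19.6%): the regulators DDIT3 and CEBPG; the effectors TRIB3, CHAC1, SESN2 and VLDLR; the enzymes ASNS, PSAT1, PSPH and PCK2; the transporters SLC7A11, SLC7A5, SLC3A2 and SLC1A5; and XPOT. The same 15 were lowest there in unnormalized FPKM (background 21.3%), but only CHAC1 was on the spike-in scale (2.94%, background 0.86%). ATF4, DDIT4 and SHMT2 were highest in WT letter A (8.82%, background 26.3%). One myeloid marker, LYZ, was also high there, at 5.13 and 5.87 normalized FPKM in WT letter A and 1.14 to 1.85 in the other 6 libraries, and it set the sum of the 10 myeloid markers, 7.83 and 7.97 in WT letter A and 3.60 to 4.70 in the others. CD33, the other myeloid marker above the minimum, did not follow it, at 1.46 and 0.946 normalized FPKM in WT letter A and 0.647 to 1.73 in the others. ELANE, S100A8 and S100A9 were at 0 unnormalized FPKM in all 8 libraries. The part of LYZ-expressing cells in the result was not tested.

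Both SE letter A libraries were the highest of all 8 for 7 members (20.6%, background 16.6%), namely DDIT3, TRIB3, CHAC1, SESN2, SLC7A11, PPP1R15A and SARS. They were the lowest for 8 (23.5%, background 26.2%), namely PHGDH, MTHFD2, PYCR1, ALDH18A1, EIF4EBP1, GARS, EPRS and NARS. SE letter B was highest for 6 members (background 6.64%) and lowest for 4 (7.52%), and WT letter B was highest for 6 (10.8%) and lowest for 1 (7.22%). The 9 adherent cell markers summed to 6.99 and 8.64 normalized FPKM in SE letter A and to 5.42 to 6.33 in the other 6 libraries. Most of that sum was TAGLN, at 3.89 and 4.92 in SE letter A and 2.68 to 3.90 in the others, and ACTA2, at 2.24 and 2.75 in SE letter A and 1.14 to 2.11 in the others. COL1A1 was highest in WT letter A, and LUM, EPCAM and KRT18 were at 0 unnormalized FPKM in all 8 libraries. The part of adherent cells in the result was not tested. Over all 8 libraries CHAC1 had the widest range of the members, 2.29-fold at equal medians and wider than 97.6% of genes, then DDIT3 at 1.93-fold, SLC7A11 at 1.84-fold and TRIB3 at 1.79-fold. XPOT had the narrowest, 1.09-fold. CHAC1 and SLC7A11 were the lowest tested members, at means of 3.20 and 1.55 normalized FPKM, and the share of genes was taken over all levels.

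**Figure D4:**
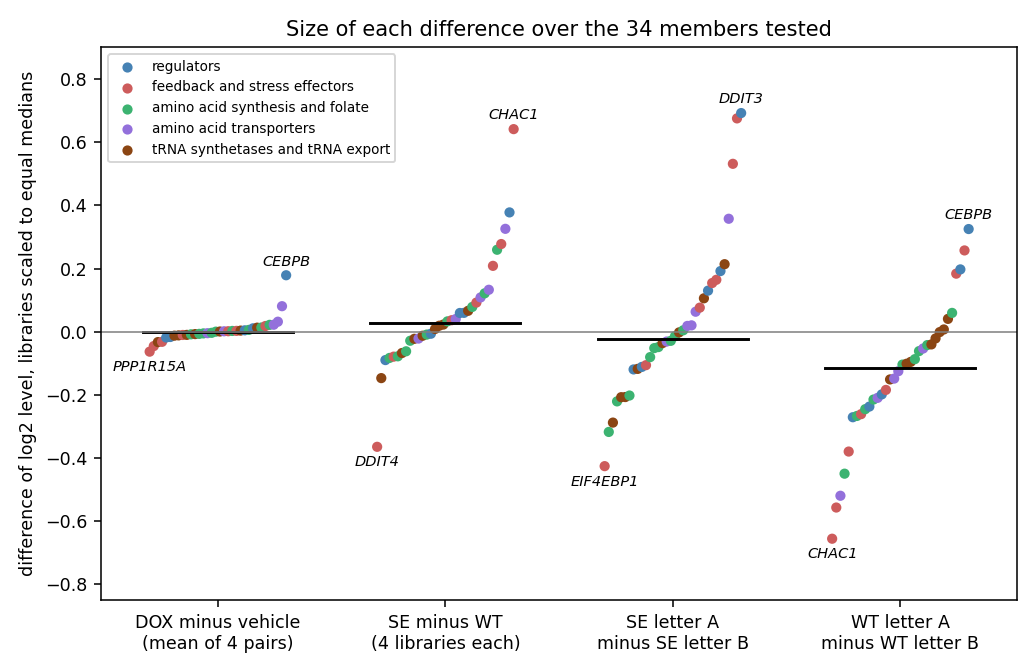
Differences of log2 level with libraries scaled to equal medians (vertical axis), sorted within each of 4 contrasts (horizontal axis), 1 point per tested member coloured by role, with the members' median as a black line. DOX minus vehicle is the tightest, from -0.06 (PPP1R15A) to 0.18 (CEBPB); the letter contrasts reach 0.69 (DDIT3 in SE) and -0.66 (CHAC1 in WT).

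Genes around the module were read from 7 further lists, and 0 of their tested genes were called in any of the 6 limma comparisons. For DOX averaged over both constructs the list medians lay between -0.008 and 0.001 of the median gene. That held for the 18 tested eIF2 kinases, eIF2 and eIF2B subunits and regulators, where OMA1 led at a log2 fold change of -0.23 (standard error 0.13) and KIAA0141 followed at -0.15 (standard error 0.14). In 17 other ATF4-responsive genes BBC3, a death gene, led at -0.22 and ATF3, a stress factor, followed at -0.16. In the lists of 16 other cytosolic and 17 mitochondrial synthetases the leaders were HARS and AIMP1 at -0.16 and -0.15, and VARS2 and HARS2 at -0.21 and -0.18. Among 13 mitochondrial chaperones and proteases, known to rise in mitochondrial protein stress, HTRA2 and SPG7 had -0.19 and -0.16. Relative to the median gene that list ran from -0.05 to 0.02. SYVN1 and EDEM1 led 20 genes of endoplasmic reticulum stress at -0.20 and -0.14, and GLDC and GOT1 led 16 further serine, glycine and folate genes at -0.27 and -0.15. Every one of these fold changes includes the shift of the median gene, -0.14, and the limma adjusted p of each was 0.657.

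For SE minus WT in vehicle, the list medians relative to the median gene were 0.18 for other ATF4-responsive genes and 0.11 for endoplasmic reticulum stress genes, beside 0.06 for the module. They were -0.02 for the further serine and folate genes, -0.05 for the eIF2 list, -0.08 for other cytosolic synthetases, -0.10 for mitochondrial synthetases and -0.11 for mitochondrial chaperones and proteases. The smallest p in each list belonged to STC2 and SQSTM1, ATF6 and SEC61B, SHMT1 and SFXN1, KIAA0141 and EIF2S3, EEF1E1 and DARS, FARS2 and LARS2, and GRPEL1 and LONP1. Their log2 fold changes lay between -0.62 for EEF1E1 and -0.31 for SQSTM1, with the shift of the median gene, -0.32, included. For each the limma adjusted p was 0.339. Of the other ATF4-responsive genes 7 were under the minimum level: NUPR1, SLC7A3, GDF15, FGF21, HMOX1, CLGN and CEBPD.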

How the data were processed

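The authors deposited 2 FPKM tables of 23713 rows, 92 of them spike-ins, 1 unnormalized and 1 normalized; the sources used here do not say how the second was normalized. HISAT, Cufflinks 2.0.0 and hg19 were used, per the submitters' processing notes. FPKM values carry no counts, so the depth behind each value is unknown. The normalized table holds 0.0718 to 0.135 where the unnormalized one holds 0. Library preparation is not known to mark strand, and values of genes with near-identical copies are uncertain.

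Spike-ins and genes with a mean normalized FPKM under 1 were left out, which left 11465 genes. log2(normalized FPKM + 0.1) was fitted with limma 3.58.1 in R 4.3.3 (trended empirical Bayes) over the 4 groups, which share the spread. Fold changes on this scale understate the change of low genes. Benjamini-Hochberg adjustment ran over all genes, with a threshold of 0.05. The script was tested on simulated data. "Equal medians" means that the median log2 value of each library was set to the same level. Names starting RNU, RN7, RNA5, MIR, SNOR or SCARNA count as small RNAs, 302 of the genes tested. Tables were summarised with pandas 2.3.3 in Python 3.11.15.

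The members and lists were chosen with earlier results of these data known. The rule for names took 20 core members of the roles, given per library; further names are the 3 members of smallest p per comparison and the 2 of smallest p per further list for SE against WT in vehicle and for DOX averaged. Alternatives were the unnormalized table, equal medians, 1 spike-in factor, other pseudocounts and filters, small RNAs left out, no trend, only the groups compared, the letter as a block, and each library left out.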

Additional observations from a re-analysis of the deposited data

How the results depend on the processing

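No member was called in any of the 4 DOX comparisons under the alternatives, except PSPH and PPP1R15A, both lower, in SE with the letter as a replicate block (2 of 34 members, 5.88%, against 1569 of 11465 genes, 13.7%, called lower). Depth is unknown, and 2 libraries per group limit what can be called. The count of all genes called moved most: with the replicate block it was 1663 for DOX in SE, 181 in WT, 334 averaged, 227 for the difference of DOX effects and 24 for SE against WT in DOX. With the block and equal medians it was 5 averaged, and with small RNAs left out as well 0, 2, 2 and 0 for the 4 DOX comparisons. Without the block, leaving out small RNAs gave 1, 0, 0 and 1 for these 4, 55 for SE against WT in vehicle, and 520 with 1 member (DDIT4, log2 -0.83) for SE against WT in DOX; with equal medians too it gave 0 in the 4 and 10 in vehicle. Fitting only the groups compared gave 138 for DOX in SE, 32 for SE against WT in vehicle and 253 in DOX, and cannot be run for the averaged effect or the difference, which use all groups. The unnormalized table gave 5 averaged and 5 for the difference, equal medians 5 in WT and 5 averaged, a mean of at least 5 gave 5 in WT, 3 averaged and 11 in vehicle, and no filter 19 for SE against WT in DOX. No filter also set the members' median apart from that of all genes, by -0.0874 for DOX in SE, -0.0518 averaged, -0.0974 for the difference, -0.173 for SE against WT in vehicle and -0.282 in DOX, since many rows at the floor then enter.

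The sign of SESN2 and PSPH followed the scale. SESN2 was 0.000688 for DOX in SE and 0.00242 averaged with equal medians and small RNAs left out, with or without the block, and 0.000742 averaged in the unnormalized table. For SE against WT in DOX it was 0.0984 in the unnormalized table, 0.0891 at equal medians and 0.0915 there with small RNAs left out, and PSPH was 0.0150, 0.0110 and 0.0134, the block making no difference to these values.

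Leaving out 1 library at a time, genes called ranged from 8 to 25 for DOX in SE, 9 to 27 in WT, 14 to 30 averaged, 17 to 36 for the difference, 22 to 46 for SE against WT in vehicle and 14 to 8286 in DOX, where members called ranged from 0 to 27. The members' median minus that of all genes ranged from -0.0642 to 0.0785 for DOX in WT, -0.0749 to 0.0703 for the difference, -0.00123 to 0.0924 for SE against WT in vehicle and -0.0259 to 0.0703 in DOX. For DOX in WT, DDIT4 ranged from -0.36 to 0.14, PPP1R15A from -0.30 to 0.13 and SLC7A11 from -0.0697 to 0.253, and CEBPB averaged from -0.10 to 0.19. For DOX in SE, PSPH ranged from -0.45 to -0.09, CEBPG from -0.39 to -0.17 and SESN2 from -0.34 to -0.14, the first value of each without letter B of SE DOX and the last without letter A.

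Same-letter DOX and vehicle libraries deviated together (r = 0.739 in SE, 0.767 in WT, over genes), and SE and WT of 1 letter did not (0.0443 in DOX, 0.0325 in vehicle). With 2 letters per construct this does not establish a pairing. With the block, equal medians and small RNAs left out, no DOX interval of a member averaged over both constructs went outside -0.21 to 0.30. For CEBPB that interval ran from 0.06 to 0.30. Its interval ran from 0.12 to 0.45 in SE and from -0.09 to 0.24 in WT. In WT the interval of DDIT4 ran from -0.16 to -0.002. Neither gene was called in this fit. The cause of the moves between settings was not tested.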

Other observations

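Among the further lists, 3 genes were chosen after their values were seen; TSC22D3 and BBC3 showed patterns like those of the module's most variable members, in unnormalized FPKM. TSC22D3, a glucocorticoid-induced regulator, held 7.37 (A) and 2.95 (B) FPKM in SE DOX, 7.71 and 2.41 FPKM in SE vehicle, 2.66 and 3.97 FPKM in WT DOX, and 3.05 and 3.78 FPKM in WT vehicle. Like DDIT3 and TRIB3, it was highest in both SE letter A libraries. BBC3, the death gene PUMA, held 2.83 and 2.45 FPKM in SE DOX, 3.07 and 2.65 FPKM in SE vehicle, 1.29 and 2.02 FPKM in WT DOX, and 1.76 and 1.69 FPKM in WT vehicle. All of its SE libraries lay above all of its WT libraries, as for CHAC1 and for 8.09% of all genes on this scale. NUPR1, a stress factor downstream of ATF4, was listed at 0 in all 8 libraries.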
